A study of Mus musculus with 6 samples.

Results

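Hippocalcin and its relatives are small calcium sensor proteins of neurons, and their transcripts were followed here in mouse neural cells after knockdown of the repressor REST. The genes were Hpca, Hpcal1, Hpcal4, Ncald, Vsnl1 and Ncs1, together with the Kv channel interacting proteins Kcnip1, Kcnip2, Kcnip3 and Kcnip4. All probe sets annotated to exactly 1 of these 10 genes were taken, which gave 24 of the 45101 probe sets on the array. Each probe set is a collection of short oligonucleotides on the array that together read a transcript of its gene. Hpca was picked because its difference between the groups studied here had one of the smallest p-values in an earlier gene-level analysis of the same arrays, and the other genes were added as its relatives. The differences below are therefore a description of the chosen genes, and no test of them is given as support.

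The samples were 3 of cells infected with a REST shRNA lentivirus and 3 of cells infected with a control (CTL) shRNA lentivirus. All were NSP cells, which in this field usually means neural stem/progenitor cells, grown from dissociated brains of E12.5 mouse embryos. After overnight infection the cells were kept for 6 days before total RNA was taken, and the RNA was measured on 1-colour Affymetrix arrays. The labels name no strain and give no origin of the replicates, so the spread between arrays of a group may be technical. The hairpin reduces a transcript and does not delete the gene, and both groups carry a lentivirus.

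Neuronal calcium sensors bind calcium through EF-hand loops, and several of them carry a myristoyl group that lets them move to membranes when calcium rises. They act in transmitter release, receptor trafficking and excitability, and the Kv channel interacting proteins are auxiliary subunits of Kv4 potassium channels. REST is a DNA-binding repressor of neuronal genes in non-neuronal and progenitor cells, which it reaches through an element named RE1.

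The target, Rest, read lower with REST shRNA. Its brightest probe set read 8.63, 7.70 and 8.20 (log2 signal) on REST shRNA arrays 1, 2 and 3, against 8.92, 8.75 and 8.90 on control arrays 1, 2 and 3. All 4 Rest probe sets lay at 57.3% to 71.5% of control, and for each of them the groups did not overlap. Of all probe sets on the array, 3.89% were lower without overlap. In number 1 the log2 differences of the 4 were -0.28, -0.22, -0.98 and -0.12, and in numbers 2 and 3 they lay between -1.05 and -0.59. No Rest probe set had an adjusted p under 0.05 in the limma fit described below. Markers of several neural cell types read above a low reference. All 10 neuronal, all 7 astrocyte and all 7 neural progenitor markers had a mean log2 signal above 3.24, the highest log2 signal of 27 bacterial control probe sets on any array, which serves as a reference for dim signals. Of 8 oligodendrocyte lineage markers only Mog lay at or below it. Of the 4 microglial markers Aif1 and Itgam lay below it, as did Pecam1 and Cdh5 of the 4 fibroblast and vessel markers.

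Hpca stood far higher with REST shRNA. Hippocalcin is the calcium sensor best known from hippocampal pyramidal neurons, where it acts in the slow afterhyperpolarisation. Its brighter probe set, 1450930_at, read 7.57, 7.97 and 7.69 on REST shRNA arrays 1, 2 and 3, against 5.16, 5.55 and 6.04 on control arrays 1, 2 and 3. The lowest REST shRNA array lay well above the highest control array. The log2 difference was 2.16 ± 0.25 (SE, n = 3 per group; 95% CI 1.56 to 2.76), a 4.46-fold higher level, and it was the 4th largest positive difference of all probe sets. Within replicate numbers 1, 2 and 3 the difference was 2.41, 2.42 and 1.65. Leaving out any 1 array gave 1.95 to 2.39.

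The dimmer Hpca probe set, 1425833_a_at, was lower in signal and more uneven. It read 3.20, 4.32 and 3.88 on REST shRNA arrays 1, 2 and 3, against 2.34, 2.45 and 2.27 on control arrays 1, 2 and 3. The groups did not overlap, but all control arrays and REST shRNA array 1 lay below the bacterial reference. The size of the difference is therefore uncertain. The difference was 1.44 ± 0.29 (SE, log2; n = 3 per group), or 2.72-fold. REST shRNA array 2 was the highest for both probe sets.

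Sequence around the gene starts was searched for the letters of the RE1 element, since RE1 is the site that REST is known to bind. RefSeq windows of 250 bases before to 50 after a start (build GRCm38.p6) matched 9 of the 10 genes, all but Ncald, with 17 windows. The left part TTCAGCACC was found on either strand in 0 of the 17 windows, and in 0.371% of all 32851 windows. With at most 1 mismatch it was found in 0 of the 17, and in 8.25% of all windows. The right part was searched as the 6 letters GGACAG only, not to the end of the element. These letters were found in 4 of the 17, in 1 start each of Hpca and Kcnip4 and in 2 of Kcnip3. They were found in 22.2% of all windows, a share close to that of the 17, so nothing is read from this count. The left part followed by 2 free bases and the right part was found with at most 3 mismatches among 15 fixed letters in 1 of the 17, at a Kcnip3 start, and in 1.17% of all windows. The best match of both parts at an Hpca start had 4 mismatches. The letters of the right part lie within those of both parts, so these counts overlap. RE1 elements also lie outside such windows, which were not searched. Shown are the Hpca stretch with the right part in capitals (reverse strand, starting at -242 from the start; minus strand, chr4:129121748-129121997) and the Kcnip3 stretch with its 12 matching letters in capitals (minus strand, chr2:127521589-127521605).
Hpca: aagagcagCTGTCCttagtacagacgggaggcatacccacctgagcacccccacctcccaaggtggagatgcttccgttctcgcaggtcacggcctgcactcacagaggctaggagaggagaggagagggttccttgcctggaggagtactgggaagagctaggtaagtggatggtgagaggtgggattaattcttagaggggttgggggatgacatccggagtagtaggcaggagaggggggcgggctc
Kcnip3: aTgAGaACCagGGACAG

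**Figure D1:**
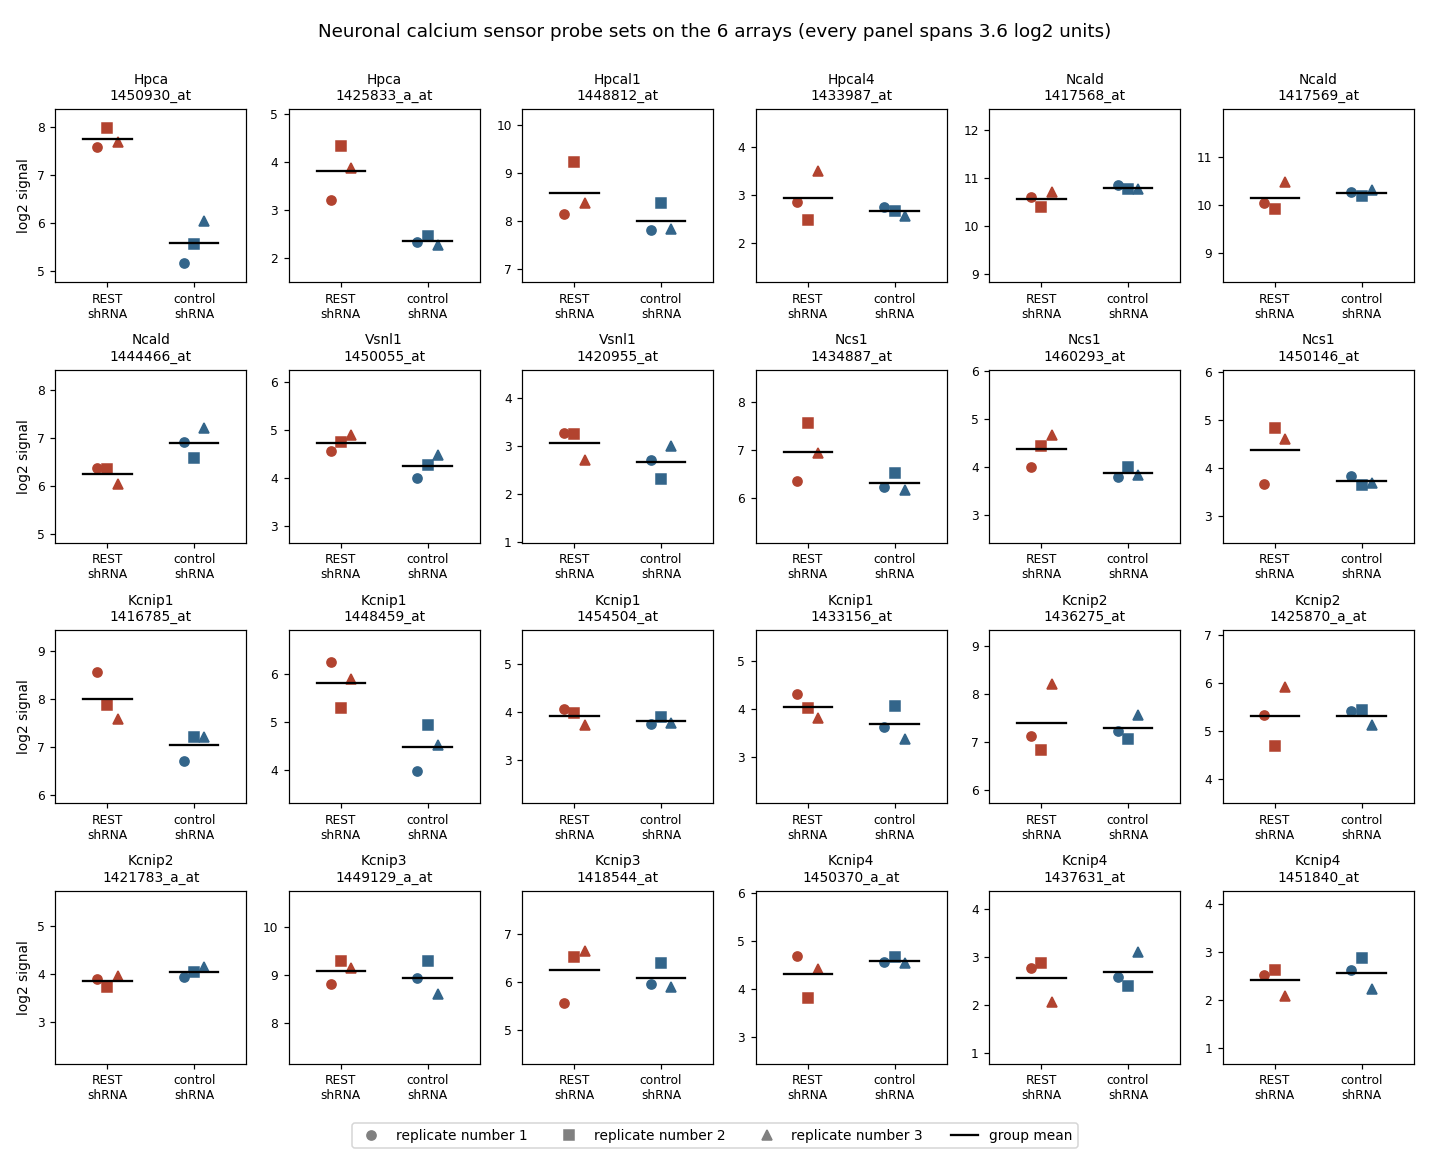
Log2 signal of the 24 probe sets on the 6 arrays, with REST shRNA left of control shRNA in each panel; marker shapes give the replicate number, bars give group means, and every panel spans the same log2 range around its own centre. Both Hpca panels show separated groups, and the brightest Hpca probe set averages 7.74 with REST shRNA and 5.58 in control.

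The closest relatives of Hpca differed from control by far less. Hpcal1, also called VILIP-3 and best known from cerebellar Purkinje cells, read 8.15, 9.24 and 8.37 on REST shRNA arrays 1, 2 and 3, against 7.82, 8.37 and 7.84 on control arrays 1, 2 and 3. Each REST shRNA array was above the control array of its number, yet the groups overlapped, since REST shRNA array 1 lay below control array 2. The log2 difference was 0.57 ± 0.32 (SE), and it was 0.24 without REST shRNA array 2. Hpcal4, a close relative with the older name NVP-2, had 1 probe set near the limit of detection. It read 2.87, 2.48 and 3.51 with REST shRNA, against 2.76, 2.67 and 2.57 in control, so only REST shRNA array 3 lay above the bacterial reference. Its difference of 0.28 ± 0.27 (SE, log2) came mainly from that array and was 0.11, -0.19 and 0.93 in numbers 1, 2 and 3.

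Ncald read lower with all of its 3 probe sets, without overlap between groups for 2 of them. Neurocalcin delta is a myristoylated sensor linked to clathrin-coated vesicles. Its brightest probe set, 1417568_at, read 10.60, 10.40 and 10.71 on REST shRNA arrays 1, 2 and 3, against 10.86, 10.77 and 10.77 on control arrays 1, 2 and 3. The groups did not overlap, but the log2 difference was small, at -0.23 ± 0.15 (SE), and the 95% interval of -0.60 to 0.14 spans 0. A second bright probe set, 1417569_at, overlapped between groups and differed by -0.11 ± 0.19. It was 0.01 without REST shRNA array 2.

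The third Ncald probe set, 1444466_at, gave the lowest difference of all 24. It read 6.36, 6.35 and 6.03 with REST shRNA, against 6.92, 6.58 and 7.20 in control, with no overlap. Its log2 difference of -0.65 ± 0.21 (SE) puts it at 63.6% of control. The 3 Ncald probe sets thus share a sign but not a size, and values of different probe sets cannot be set against each other as levels.

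Vsnl1 encodes visinin-like protein 1, a sensor that acts on guanylate cyclase signalling and receptor trafficking. Probe set 1450055_at read 4.57, 4.75 and 4.90 on REST shRNA arrays 1, 2 and 3, against 4.01, 4.28 and 4.48 on control arrays 1, 2 and 3. The groups lay close together without overlap. The log2 difference of 0.48 ± 0.19 (SE) was similar within the 3 numbers, at 0.56, 0.47 and 0.42. The dimmer 1420955_at lay below the bacterial reference on 4 of the 6 arrays, overlapped between groups and differed by 0.40 ± 0.25.

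Ncs1, the mammalian counterpart of fly frequenin, is known to enhance transmitter release and to bind a phosphatidylinositol 4-kinase. Its brightest probe set, 1434887_at, read 6.35, 7.56 and 6.93 on REST shRNA arrays 1, 2 and 3, against 6.23, 6.51 and 6.17 on control arrays 1, 2 and 3. REST shRNA arrays 2 and 3 stood above every control array, and REST shRNA array 1 lay among the controls. This split was shared by the other probe sets, 1460293_at and 1450146_at, and the 3 log2 differences were 0.64 ± 0.31, 0.50 ± 0.21 and 0.64 ± 0.31 (SE). In number 1 the differences were 0.12, 0.22 and -0.17. Without REST shRNA array 1 they were 0.94, 0.68 and 1.00, and without REST shRNA array 2 they were 0.34, 0.46 and 0.41.

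Among the Kv channel interacting proteins, Kcnip1 stood apart from Kcnip2, Kcnip3 and Kcnip4 in size. Kcnip1 encodes KChIP1, a subunit that raises the surface level of Kv4 channels and slows their inactivation. Probe set 1416785_at read 8.56, 7.87 and 7.59 on REST shRNA arrays 1, 2 and 3, against 6.71, 7.21 and 7.22 on control arrays 1, 2 and 3. Probe set 1448459_at read 6.24, 5.28 and 5.90 with REST shRNA, against 3.97, 4.93 and 4.51 in control. For both, every REST shRNA array was above every control array. The log2 differences were 0.96 ± 0.29 and 1.33 ± 0.33 (SE), or 1.95-fold and 2.52-fold.

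The size of the Kcnip1 difference depended on the replicate number. It was 1.84, 0.66 and 0.38 for 1416785_at and 2.28, 0.35 and 1.38 for 1448459_at in numbers 1, 2 and 3. In number 1 the REST shRNA array was the highest and the control array the lowest of all 6 for both probe sets. Without REST shRNA array 1 the differences were 0.69 and 1.12. The other Kcnip1 probe sets, 1454504_at and 1433156_at, were dim, at a mean log2 signal of 3.86 each, and overlapped between groups, with differences of 0.12 ± 0.16 and 0.35 ± 0.23.

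Kcnip2, whose product is best known for shaping the transient outward current of heart muscle, gave no common direction. Its brightest probe set, 1436275_at, read 7.12, 6.84 and 8.21 with REST shRNA, against 7.23, 7.06 and 7.56 in control. The groups overlapped fully, REST shRNA array 3 was the highest and REST shRNA array 2 the lowest. The log2 differences of its 3 probe sets were 0.11 ± 0.36, -0.01 ± 0.31 and -0.18 ± 0.15 (SE). The 95% interval of the brightest, -0.76 to 0.97, leaves room for a difference in either direction.

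Kcnip3 encodes KChIP3, also known as DREAM and calsenilin, which besides its channel role binds DNA. Probe set 1449129_a_at read 8.82, 9.30 and 9.15 with REST shRNA, against 8.94, 9.29 and 8.62 in control. The groups overlapped, and the log2 difference was 0.14 ± 0.23 (SE). For 1418544_at it was 0.16 ± 0.32, with -0.40, 0.13 and 0.74 in numbers 1, 2 and 3.

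Kcnip4 encodes KChIP4, a Kv4 subunit with splice forms that delay inactivation. Its brightest probe set, 1450370_a_at, read 4.68, 3.80 and 4.41 with REST shRNA, against 4.55, 4.65 and 4.54 in control. REST shRNA array 2 was the lowest array, while REST shRNA array 1 was the highest. All 3 probe sets had small negative differences, from -0.28 to -0.13, and their size depended on single arrays. For 1450370_a_at the difference of -0.28 was -0.04 without REST shRNA array 2. The other 2 lay below the bacterial reference on all arrays. For 1451840_at the difference was -0.09, -0.26 and -0.15 in numbers 1, 2 and 3. Its mean of -0.16 was -0.01 without REST shRNA array 3 and -0.02 without control array 2. For 1437631_at the difference was 0.18, 0.48 and -1.05 in numbers 1, 2 and 3.

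**Figure D2:**
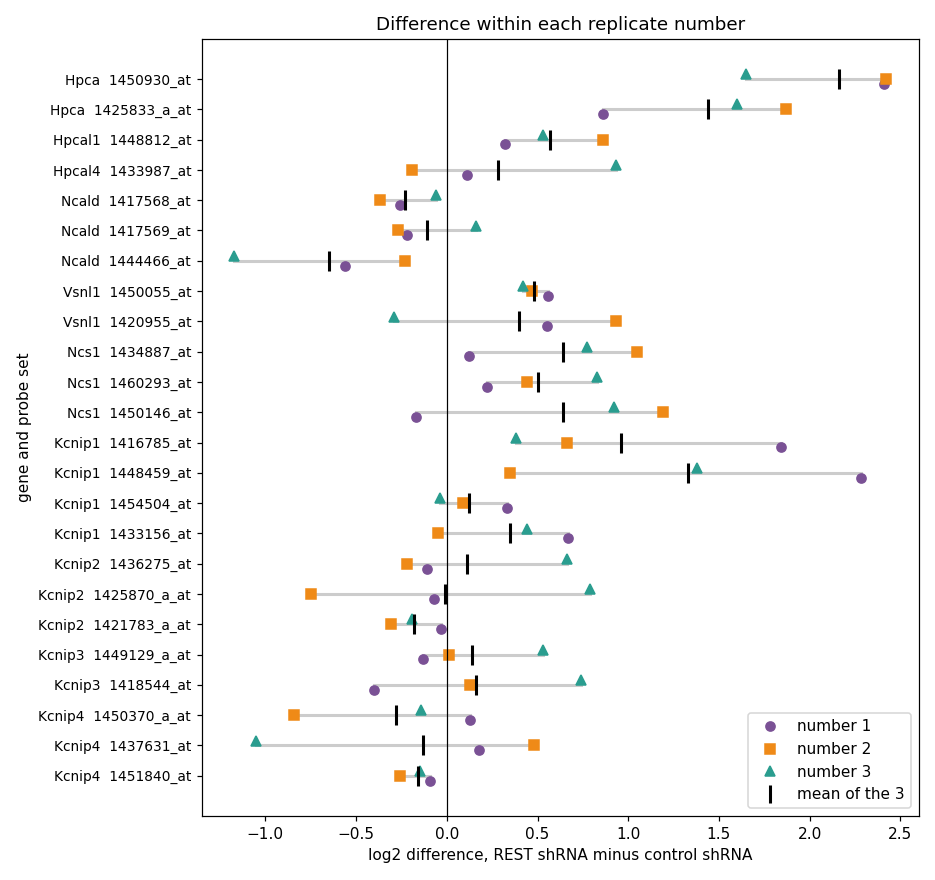
Log2 difference, REST shRNA minus control shRNA, within each replicate number (marker shapes) and their mean (black tick) for the 24 probe sets, one row each. The brightest Hpca probe set lies between 1.65 and 2.42 in all 3 numbers, while Kcnip1 ranges from 0.38 to 1.84 for its brightest probe set and both Kcnip3 probe sets lie on either side of 0 in different numbers.

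Over the 24 probe sets, 16 had a positive and 8 a negative difference, with a median log2 difference of 0.22, against a median of 0.01 over all probe sets, of which 52.6% were positive and 47.4% negative. The sign split follows the genes: all probe sets of Hpca, Hpcal1, Hpcal4, Vsnl1, Ncs1, Kcnip1 and Kcnip3 were positive, all of Ncald and Kcnip4 negative, and Kcnip2 was mixed. Signs changed on leaving out 1 array for 1 probe set each of Ncald and Kcnip4 and for 2 each of Kcnip2 and Kcnip3. In numbers 1, 2 and 3 the median was 0.13, 0.11 and 0.48, with 14, 14 and 16 probe sets positive.

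The limma fit over all 45101 probe sets called 0 of the 24 at a Benjamini-Hochberg adjusted p under 0.05, and 0% of the table. At an unadjusted p under 0.05, 6 of the 24 were higher, where 1.53% of all probe sets were, and 1 was lower, where 1.93% of all were. With each array centred on its median the table held 905 higher and 672 lower probe sets at that threshold, against 692 and 869 as deposited. The 6 were both Hpca probe sets, 1450055_at of Vsnl1, 1460293_at of Ncs1, and 1416785_at and 1448459_at of Kcnip1, and the lower one was 1444466_at of Ncald. Over the brightest probe set of each gene, 3 of the 10 genes were higher (1.78% of all genes) and 0 lower (1.07% of all genes), with 0 called after adjustment. The groups did not overlap for 5 higher probe sets, 2 of Hpca, 2 of Kcnip1 and 1 of Vsnl1 (4.35% of all probe sets), and for 2 lower ones, both of Ncald (3.89% of all). In every number 8 were higher (12.2% of all) and 4 lower (11.0% of all). Since Hpca was chosen from this contrast, these shares are given side by side and nothing is read from them. Of the 24, 19 had a mean above the bacterial reference, and the other 5 were 1 each of Hpca, Hpcal4 and Vsnl1 and 2 of Kcnip4.

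**Figure D3:**
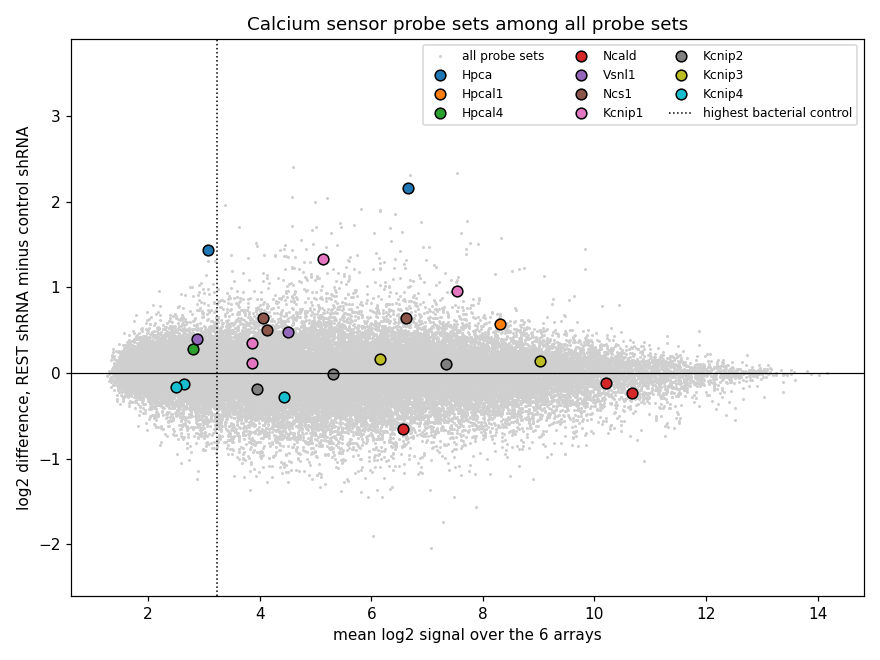
Log2 difference, REST shRNA minus control shRNA, against the mean log2 signal over the 6 arrays, for all probe sets (grey) and the 24 calcium sensor probe sets (coloured by gene); the dotted line marks the highest bacterial control at 3.24. Hpca at 2.16 and 1.44 and Kcnip1 at 1.33 and 0.96 lie at the upper edge, Ncald at -0.65 below most probe sets of its brightness, and most others within the grey cloud.

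Markers of cell types also differed between the arrays. The summed linear signal of the 10 neuronal markers was 5993, 4606 and 6704 on REST shRNA arrays 1, 2 and 3, against 4086, 3966 and 4805 on control arrays 1, 2 and 3, and 7 of the 10 were higher. Their median log2 difference was 0.79, 0.37 and 1.05 in numbers 1, 2 and 3. The brightest Hpca probe set differed by 2.41, 2.42 and 1.65 in the same numbers. All 7 astrocyte markers were lower, with sums of 16350, 5717 and 14613 with REST shRNA, against 14615, 12111 and 13961 in control. That shift lay in number 2: their median log2 difference was -0.03, -1.14 and -0.09 in numbers 1, 2 and 3, and in numbers 1 and 3 the sums were higher with REST shRNA. Among the brightest probe sets, those of Hpca, Hpcal1, Ncs1 and Kcnip3 were highest within the REST shRNA group on array 2, which had the lowest astrocyte sum, those of Kcnip1 and Kcnip4 on array 1, and those of Hpcal4, Ncald, Vsnl1 and Kcnip2 on array 3. Of the 7 progenitor markers 6 were lower, with sums of 13588 to 16187 with REST shRNA and 16572 to 17635 in control, and with a median log2 difference of 0.08, -0.52 and -0.23 in numbers 1, 2 and 3. Sums of the oligodendrocyte lineage markers overlapped, at 6912 to 12396 with REST shRNA and 7786 to 9571 in control. The 4 microglial markers were all higher, with sums of 41.8 to 49.1 with REST shRNA and 36.4 to 38.0 in control, close to the bacterial reference. The 4 fibroblast and vessel markers were split, with sums of 37.8 to 56.2 with REST shRNA and 33.8 to 43.4 in control. The part of these shifts in the calcium sensor differences was not tested. In such bulk RNA a change in the number of cells of a type and a change of RNA per cell cannot be told apart.

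The genes whose course over the 6 arrays was nearest to Hpca were St8sia3, Snap25, Celsr3, Jph4 and Slc7a14. Nearness was the root mean square distance between log2 signals, each gene taken as deviations from its own mean, over the brightest probe set of 18194 genes. St8sia3, a brain sialyltransferase, was nearest at 0.21, with Snap25, a SNARE of vesicle fusion, at 0.37 and Celsr3, a cadherin of axon tract development, at 0.42. Jph4, a neuronal junctophilin, followed at 0.44 and Slc7a14, a transporter-like protein, at 0.45. Their log2 differences were 2.33, 1.58, 1.77, 1.70 and 2.05, and all were higher in each number. Hpca was chosen for its group difference, which makes up most of its course over the arrays. Nearness to it therefore mostly picks genes with large positive differences, here ranked 2, 27, 14, 20 and 6 among all probe sets. That they were higher follows from this choice, and the order within the sensor family is bound in the same way. St8sia3 also shared the high REST shRNA array 2, at 9.29 against 8.36 and 8.46 on REST shRNA arrays 1 and 3. Within the sensor family Kcnip1 was nearest, at 0.71 and place 68 of 18193 genes, then Ncs1 at 0.85, Vsnl1 at 0.86 and Hpcal1 at 0.88. Hpcal4, Kcnip3, Kcnip2, Ncald and Kcnip4 lay at 1.06 to 1.30, around the median of 1.13 for all genes.

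**Figure D4:**
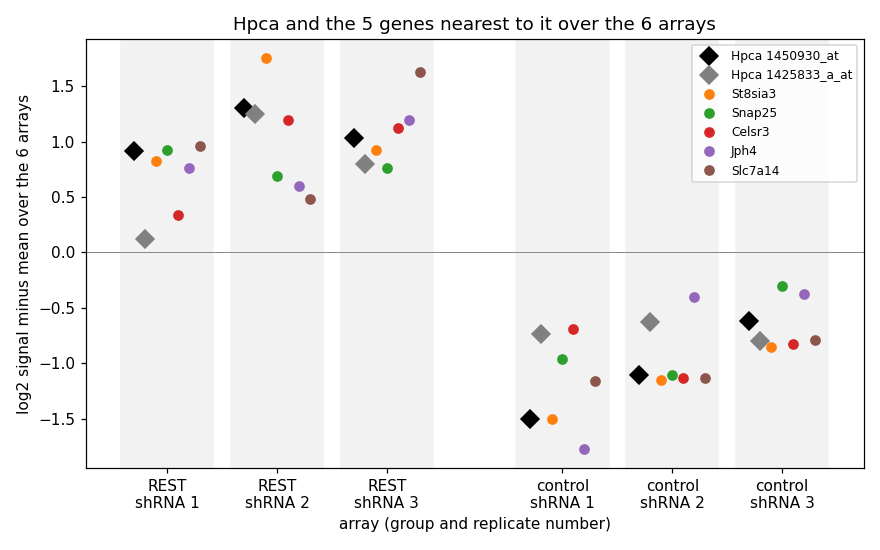
Log2 signal minus the mean over the 6 arrays for both Hpca probe sets (diamonds) and the 5 nearest genes (circles), one grey band per array, REST shRNA left of control shRNA. All 7 probe sets lie above 0 on the REST shRNA arrays and below 0 on the control arrays, and St8sia3 follows the brighter Hpca probe set most closely. For the 5 genes this separation follows from how they were picked.

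Related genes outside the family were described by 2 lists. In a list of 27 other calcium sensors and buffers, 22 genes with 37 probe sets were measured, and the others were not analysed here. Of these probe sets 23 were positive and 14 negative, and their median log2 difference was 0.06, against 0.01 over all probe sets. There were 0 called at the adjusted threshold by limma and, at the unadjusted threshold, 2 higher and 1 lower (1.53% and 1.93% of all probe sets). The higher ones were Calb2 (calretinin, a calcium buffer of interneurons) and 1418743_a_at of Tesc (tescalcin), and the lower one was a probe set of Necab3, 1447907_x_at, that lies below the bacterial reference. Calb2 read 5.88, 4.55 and 6.00 with REST shRNA, against 4.39, 3.94 and 4.70 in control, with REST shRNA array 2 among the controls and a difference of 1.13 ± 0.42 (SE, log2). Tesc differed by 0.57 ± 0.21 and Necab3 by -0.53 ± 0.15, each without overlap. For both genes a brighter probe set was measured too, and it did not pass the unadjusted threshold. Calb2 was named after its values were seen.

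The list of Kv4 channel subunits and other partners held 22 genes, of which 19 with 49 probe sets were measured, and the others were not analysed here. Of these 31 were positive and 18 negative, with a median log2 difference of 0.07. At the adjusted threshold 0 were called by limma, and at the unadjusted threshold 1 was higher and 0 lower (1.53% and 1.93% of all probe sets). That one was 1423581_at of Nmt2, an N-myristoyltransferase, the type of enzyme that attaches the lipid of the myristoylated sensors. It read 8.29, 8.43 and 8.59 with REST shRNA, against 8.14, 7.93 and 8.10 in control, a difference of 0.38 ± 0.16 (SE, log2). A brighter probe set of Nmt2 was measured too, and it did not pass that threshold. Drd2, a dopamine receptor that Ncs1 binds, differed by 0.46 ± 0.21 below the bacterial reference. The Kv4 pore subunits and the DPP subunits, which join the same channels, gave smaller differences than the brighter Kcnip1 probe sets. The 15 probe sets of Kcnd1, Kcnd2, Kcnd3, Dpp6 and Dpp10 had a median of -0.03 and ranged from -0.60 to 0.33. The dim Kcnip1 probe sets, at 0.12 and 0.35, lay within or close to that range. All 15 overlapped between groups, where 4.35% of all probe sets were higher and 3.89% lower without overlap. The Kv4 and DPP subunits were singled out after their values were seen. Kcnd2, a pore subunit of Kv4 channels, read 8.49, 8.63 and 7.60 with REST shRNA, against 8.95, 8.74 and 7.81 in control, so it was lowest in number 3 of both groups and differed by -0.26 ± 0.39 (SE, log2; 0.18 with the replicate number as a block). Its 3 bright probe sets were lower in every number. The differences in numbers 1, 2 and 3 were -0.46, -0.11 and -0.21 for 1422834_at, -0.76, -0.14 and -0.83 for 1422835_at, and -0.44, -0.45 and -0.48 for 1450773_at. The dim 1447764_at differed by 0.09 ± 0.15.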

How the data were processed

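The values are the deposited log2 signals per probe set, 1.00 to 14.2, on 6 arrays. The log2 scale was read from their range, and how the authors corrected, summarised and normalized them is not given in the sources used here. Array medians lay between 4.89 and 4.96, and values were used without further scaling. Array correlations ran from 0.955 to 0.993, and 0 pairs of columns were identical. Gene names came from GEO's platform annotation (34958 with 1 gene, 932 with several, 9211 not listed), and 0 probe sets of the calcium sensor genes carried several genes.

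All probe sets were fitted with limma 3.58.1 in R 4.3.3 (lmFit, eBayes, group as sole term, two-sided), with 4 residual and 2.9 prior degrees of freedom and Benjamini-Hochberg adjustment over 45101 probe sets. SE and 95% CI are from that fit, and SD is over the arrays of a group. The steps were tested on 10 simulated tables with the spread of each probe set and changes added to 200 probe sets. Their noise was normal and independent between probe sets and arrays, whereas real arrays of the same number deviated together. The shares found there need not hold for the real arrays. At an adjusted p under 0.05 the limma fit found 7.9% of 2-fold and 61.4% of 4-fold changes. It made 3 false calls per table on average. Having 0 probe sets called therefore says little about 2-fold differences, and no Rest probe set was called either. The number of arrays limits the precision.

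The genes named were all probe sets of the 10 members, those of Rest, the 2 with the smallest p per list, and the 5 nearest to Hpca with predicted gene models passed over. Calb2 and the Kv4 and DPP subunits, Kcnd2 among them, fall outside this rule and were named after their values were seen. The members and lists were chosen with earlier results of these data known. Replicate numbers from the titles were taken to pair the arrays, since arrays of the same number deviated together from their group means, with correlations of 0.117, 0.282 and 0.402 for numbers 1, 2 and 3. For control array 1 the best partner was REST shRNA array 2, at 0.231. Alternatives were the replicate block, quantile normalization, median centring, a filter on dim probe sets, other probe set choices, other variance models and leaving out each array.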

Additional observations from a re-analysis of the deposited data

How the results depend on the processing

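No calcium sensor probe set passed the adjusted threshold under any of the 14 alternatives. With the replicate number as a block, 8 were higher and 1 lower at an unadjusted p under 0.05 (6 and 1 without it), with 0 past the adjusted threshold and a median of 0.22, so the block changed no call. With only the brightest probe set of each gene, 3 were higher and 0 lower. That choice leaves out 1425833_a_at of Hpca, 1448459_at of Kcnip1, 1460293_at of Ncs1 and 1444466_at of Ncald, which are not the brightest of their genes. Leaving out 1 array gave 4 to 8 higher and 0 to 1 lower, 0 without REST shRNA array 3 or control array 3, and a median of 0.17 to 0.31. Over the whole table, 692 probe sets were higher and 869 lower at that threshold. Array weights gave 1316 and 1243, 1 probe set per gene 323 and 195, and probe sets above the bacterial reference 453 and 596. Leaving out REST shRNA array 1 gave 1349 and 1368, leaving out REST shRNA array 2 gave 1434 and 1345, leaving out control array 1 gave 325 and 514, and leaving out control array 2 gave 451 and 799. The median of the other calcium sensors was -0.04 over probe sets above the bacterial reference and 0.02 to 0.13 on leaving out 1 array. That of the Kv4 subunits and partners was 0.10 with median centring and 0.03 to 0.10 on leaving out 1 array. The cause was not tested. Signals near the bacterial reference limit what can be seen of Hpcal4, Kcnip4 and the dimmer Hpca and Vsnl1 probe sets.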
